A study of Ovis aries with 6 samples.

Results

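The solute carrier genes are the named genes of membrane transporters, and their transcripts were followed in cells recovered from sheep milk with and without linseed in the diet. Members were taken by name, as every gene whose sheep symbol starts with SLC and a digit or with SLCO, leaving out SLC27A4, with 1 transcript per gene, that of highest mean level. This gave 191 genes of the 11285 that had a symbol in the table. Symbols reached 31.9% of its transcripts, and 172 of 363 solute carrier symbols in the sheep gene table were not matched, among them SLC2A1, SLC7A5, SLC1A5 and SLC40A1, which are not analysed here. The linseed group was 3 libraries from Comisana ewes given grass, hay and a concentrate with 20% extruded linseed by dry matter for 3 weeks. The control group was 3 libraries from the same ewes on hay and a commercial concentrate for 3 weeks. The sample records give 90 days of lactation for both groups. Linseed was always the later of the feeding periods, so diet and the passage of lactation time cannot be told apart. The diets also differed in grass and in the concentrate, so linseed itself cannot be told apart from these. The words "with linseed" name the whole feeding period. The question the design poses is which transcripts of the milk cells differ between the 2 feeding periods.

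Solute carriers move sugars, amino acids, metal ions, nucleotides and other small molecules across the plasma membrane and the membranes of organelles, usually without spending ATP directly. In the mammary epithelium they bring in the glucose and amino acids used for lactose and milk protein, pass UDP-galactose into the Golgi and load zinc into secretory vesicles. In macrophages and neutrophils other members feed glycolysis and move metals out of the phagosome. Milk cells are a mixture of shed epithelium and immune cells, and in such bulk RNA fewer cells of a type and less RNA per cell cannot be told apart.

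Levels are RPKM, reads per kilobase of transcript scaled to the size of the library, so transcripts of different length can be set side by side. The libraries held 4941935, 5978026 and 19912996 reads with linseed and 22644050, 8805705 and 10602801 in control for sheep 1, 2 and 3, as solved from the steps between low values. At 2000 nt, 1 read was worth between 0.0221 and 0.1012 RPKM. Milk protein transcripts took 30.23%, 23.6% and 1.28% of the reads with linseed and 47.76%, 35.91% and 4.38% in control. Summed macrophage markers ranged from 777.6 to 1860 RPKM with linseed and from 105.4 to 1097 in control, for the 7 of 10 listed that were matched. Summed neutrophil markers, 6 of 8 matched, ranged from 2319 to 3454 RPKM with linseed and from 861.7 to 1568 in control, without overlap. Without lactoferrin (LTF), a milk protein as well as a neutrophil one that made up 1146 RPKM of the sum in control sheep 1, they ranged from 2314 to 3187 RPKM with linseed and from 421.6 to 954.3 in control, most of it S100A8 and S100A9 in the linseed libraries. Summed epithelial markers, 6 of 10 matched, ranged from 2755 to 42870 RPKM with linseed and from 9099 to 123600 in control, and most of each sum was beta-casein and alpha-lactalbumin. The other 4 epithelial markers, EPCAM, KRT8, CD24 and ELF5, summed to between 80.41 and 623.3 RPKM with linseed and between 355.5 and 540.1 in control. Of these 4, KRT8 was higher with linseed in sheep 1 and 2. Without KRT8, the other 3 summed to 59.06 to 123.3 RPKM with linseed and to 256.9 to 522.6 in control. In sheep 3 most of that sum was CD24, at 51.65 RPKM with linseed and 286.9 in control. The groups overlapped for EPCAM and for ELF5, and only CD24 kept them apart by itself. T and NK cell markers, 4 of 8 matched, summed to 55.94 to 119 RPKM with linseed and to 6.935 to 486.6 in control. B and plasma cell markers, 5 of 5 matched, stayed between 6.349 and 25.9 RPKM with linseed and between 1.177 and 25.75 in control. Of 5 erythrocyte markers 2 were matched: ALAS2 was at 0 in every library and the sum did not pass 0.3997 RPKM. The part of cell makeup in the differences given here was not tested.

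Together the members summed to 1630, 2201 and 2848 RPKM with linseed and to 2546, 1869 and 2282 RPKM in control. The ranges of the groups overlapped, and sheep 1 alone was lower with linseed. SLC25A6, an ADP/ATP carrier of the inner mitochondrial membrane, was the most abundant member in 5 of the 6 libraries. In control sheep 1 that place went to SLC6A14, an amino acid importer, at 517.3 RPKM. A mean of at least 1 RPKM was reached by 104 members, of at least 10 by 36 and of at least 100 by 5. Of the 87 under 1 RPKM, 18 were at 0 in every library, and the highest single value among the 87 was 3.66 RPKM, for SLC22A2 in control sheep 3. SLC39A14, SLC34A2 and SLC37A2, which were to be described for their known roles, were among these 87 and were not tested.

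The 104 members were tested within a limma fit over all 15891 transcripts whose mean reached 1 RPKM, on log2(RPKM + 1). A log2 change on this scale understates the change of low transcripts. Without the sheep as a block, 0 of 15891 transcripts passed an adjusted p of 0.05 as higher with linseed (0%) and 0 as lower (0%), and so no member passed; the smallest adjusted p was 0.263. At an unadjusted p under 0.05, 3 members were higher (2.88%) beside 8.50% of all transcripts, and 15 were lower (14.4%) beside 7.00%. With the sheep as a block, which compares the periods within each ewe, 0 members passed as higher while 1.28% of all transcripts did, and 4 members passed as lower (3.85%) while 1.34% of all transcripts did. These were SLC6A14, SLC39A8, SLC38A2 and SLC25A36. None of the 4 passed in the blocked limma fit with a pseudocount of 0.1, with no filter, with a filter at 5 RPKM, after median-of-ratios or quantile scaling, or after a length correction, where the smallest adjusted p over all transcripts lay between 0.0559 and 0.328. The length correction took out of each library its trend of value with transcript length. With milk proteins left out of the totals, 3 of the 4 passed the blocked fit and SLC25A36 did not.

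Counted from the same values, the direction within the animals also leaned lower, which is no separate support. Among tested members 41 (39.4%) were lower with linseed in all 3 sheep, against 26.2% of all transcripts, and 21 (20.2%) were higher in all 3, against 23.0%. All linseed values lay under all control values for 18 members (17.3%), against 7.83% of transcripts. They lay above all control values for 13 (12.5%), a share near the 13.3% of all transcripts. The filter took the mean of all 6 libraries, so a gene low in 1 group can pass through the other. Among the 18, SLC5A1, SLC30A4, SLC7A11, SLC25A16 and SLC22A16 had linseed means under 1 RPKM and passed through control. Others of the 41, such as SLC35B3, did so too. SLC5A6, among the 13, had a control mean under 1 RPKM and passed through linseed. Both the 41 and the 18 count SLC41A1, which in sheep 2 had 6.347 RPKM with linseed and 6.348 in control. Members are 1 transcript per gene, while the shares of all transcripts also take in further transcripts of a gene. The median log2 change over the 104 members was -0.54, with -0.81, -0.40 and -0.13 in sheep 1, 2 and 3, while all tested transcripts centred on -0.12. With 1 library left out the members' median ran from -0.76 to -0.22; it was -0.22 without linseed sheep 1 and -0.24 without control sheep 3. Taking in members under 1 RPKM brought it to -0.10. Leaving out sheep 3, whose milk protein share was by far the lowest in both periods, the blocked fit passed 3 members as higher and 16 as lower, beside 6.18% and 6.41% of all transcripts. Without sheep 1 it passed 3 as lower (0.912% of all transcripts), and without sheep 2 also 3 (0.485%), with 0 as higher in each. SLC6A14 and SLC39A8 passed in all of these 3 fits, which have 2 sheep each.

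**Figure D1:**
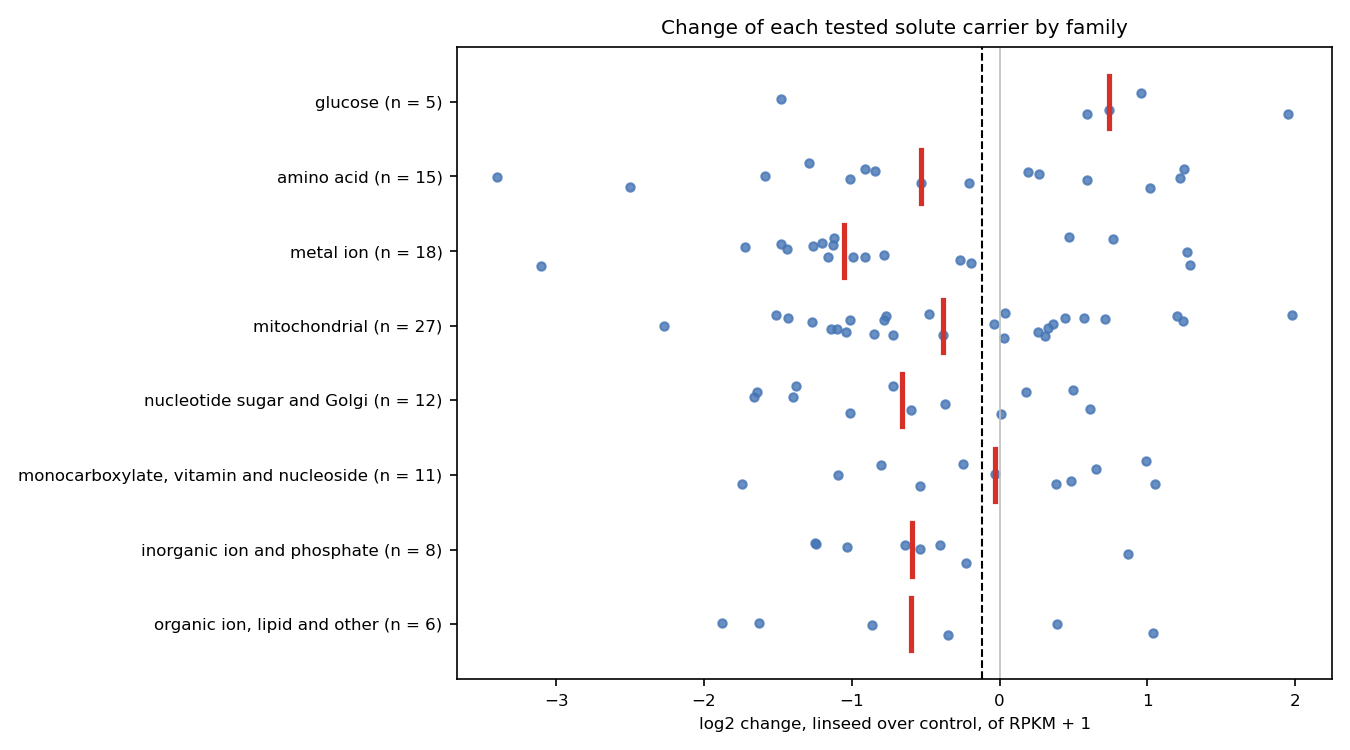
The log2 change of RPKM + 1, linseed over control, of each tested solute carrier (points) by family, with the family median (red bar), the median of all tested transcripts at -0.12 (dashed) and 0 (grey). Family medians ran from -1.05 for metal ion carriers to 0.74 for the 5 glucose carriers, and every family plotted held values on both sides of 0.

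Among glucose carriers 5 of 10 matched members were tested, and the values pointed different ways. SLC2A3 (NM_001009770.1), the facilitative transporter GLUT3 of neurons and leukocytes, had 107.9, 99.22 and 230.4 RPKM with linseed in sheep 1, 2 and 3, against 3.747, 51.48 and 175.2 RPKM in control. Control sheep 1 stood far under the other 5 libraries, all 3 sheep were higher with linseed, and the groups overlapped. The log2 change was 1.95 ± 1.09 (SE), with a limma adjusted p of 0.394, and the 3 sheep gave 4.52, 0.93 and 0.39. It was 0.50 without control sheep 1 and 3.11 without control sheep 3. Of the blocked limma fits, it passed in the 1 without sheep 3 (adjusted p = 0.0347). In control sheep 1, where SLC2A3 was lowest, the macrophage markers (105.4 RPKM) and the T and NK cell markers (6.935 RPKM) were at their lowest too. The neutrophil markers summed there to 1568 RPKM, the most of the control libraries. Without LTF they summed to 421.6 RPKM, the least of all libraries. The part of cell makeup in the SLC2A3 difference was not tested.

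SLC50A1 (XM_004002573.3), the only SWEET-type sugar carrier of mammals and one found in the Golgi, had 34.28, 38.64 and 26.34 RPKM with linseed, against 15.13, 24.81 and 18.52 RPKM in control. The lowest linseed value was above the highest control value, by a narrow margin. In the fit its log2 change was 0.74 ± 0.57, with a limma adjusted p of 0.522, and 0.33 after the length correction.

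SLC5A1 (NM_001009404.1), the sodium-glucose cotransporter SGLT1 of absorptive epithelia, was low throughout. It had 0.4457, 0.6632 and 0.1106 RPKM with linseed, against 7.315, 1.351 and 1.953 RPKM in control. Every linseed value was under every control value, and its fewest reads in a library were 5. With group means of 0.4065 RPKM with linseed and 3.539 in control, it passed the filter only through control. On the log2 scale this came to -1.48 ± 0.58, with an adjusted p of 0.289 in limma and 0.0936 with the block. SLC2A5, the fructose transporter GLUT5, had 2.356, 5.298 and 3.298 RPKM with linseed, against 0.3085, 7.617 and 0.08786 RPKM in control, and sheep 2 went the other way from the other two. SLC37A4, which carries glucose 6-phosphate into the endoplasmic reticulum, had 0.4447, 3.401 and 3.67 RPKM with linseed, against 1.286, 0.6864 and 1.244 RPKM in control, with sheep 1 lower and the others higher.

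Of 14 tested genes from a list of 23 enzymes and regulators of glucose use, 5 were higher in all 3 sheep, 4 were lower in all 3, and 0 passed either limma fit. GAPDH, the glycolytic dehydrogenase, had the largest of these 14 log2 changes, 2.36 ± 0.72, and a limma adjusted p of 0.263. B4GALT1, the galactosyltransferase of lactose synthase, had a log2 change of -2.04 ± 0.68 (limma adjusted p = 0.263), and HK2, which phosphorylates glucose, one of -1.80 ± 0.70 (0.286).

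Amino acid carriers held SLC6A14, the member with the largest log2 change in size of the 104 tested, while SLC3A2, the heavy chain of surface exchangers, was higher in every sheep. Of 31 matched members 15 were tested, with 3 higher in all 3 sheep, 6 lower in all 3, and a median log2 change of -0.53. At a filter of 5 RPKM this median was 0.27. SLC6A14 (XM_004022406.3), the sodium- and chloride-driven importer ATB0,+ that takes up neutral and cationic amino acids, had 11.34, 22.35 and 2.545 RPKM with linseed, against 517.3, 89.37 and 24.74 RPKM in control. Every linseed value was under every control value. The linseed level was 0.0219, 0.25 and 0.103 times the control level in sheep 1, 2 and 3. Fitted over both groups, its log2 change was -3.40 ± 1.05, with a limma adjusted p of 0.263 and of 0.0427 with the block (SE 0.66). Without control sheep 1 the log2 change was -2.26, and -3.37 after the length correction. Of the 6 epithelial markers matched, 4 were also lower with linseed in each sheep, namely EPCAM, CD24, ELF5 and beta-casein. EPCAM had 23.53, 63.37 and 4.37 RPKM with linseed and 214.5, 90.9 and 17.83 RPKM in control. KRT8, at 354.9, 500 and 21.34 RPKM with linseed and 17.6, 98.58 and 54.49 RPKM in control, was higher in sheep 1 and 2 and lower in sheep 3, as was alpha-lactalbumin. The part of epithelial content in the SLC6A14 difference was not tested.

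SLC38A2 (XM_004006421.3), the sodium-coupled importer SNAT2 of small neutral amino acids, had 3.947, 6.736 and 37.65 RPKM with linseed, against 48.09, 32.51 and 161.8 RPKM in control. Sheep 3 was highest in both periods, so the groups overlapped, yet each sheep was lower with linseed. The linseed level was 0.0821, 0.207 and 0.233 times the control level. The log2 change was -2.50 ± 0.87, with a limma adjusted p of 0.266 and of 0.0441 with the block (SE 0.55). It did not pass the blocked limma fit without sheep 2 (adjusted p = 0.114). A second tested transcript of the gene, of mean 1.87 RPKM, had a log2 change of -1.28 ± 0.65 and was also lower in all 3 sheep. SLC38A1, the related SNAT1, had a log2 change of -1.29 ± 0.78 and was lower in all 3 as well.

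SLC3A2 (XM_004019620.3), the heavy chain of CD98 that brings several amino acid exchangers to the cell surface, had 361.9, 463.6 and 220.7 RPKM with linseed, against 198.2, 169.5 and 85.99 RPKM in control. All 3 linseed values lay above all 3 control values. In the fit its log2 change was 1.22 ± 0.62, with a limma adjusted p of 0.363 and of 0.2 with the block. Its light chain SLC7A7, which exports cationic amino acids from macrophages and other cells, had 9.051, 27.18 and 103.1 RPKM with linseed, against 3.516, 37.47 and 19.23 RPKM in control, with sheep 2 lower and the others higher. A second SLC7A7 transcript, of mean 5.09 RPKM, was higher in all 3 sheep, with a log2 change of 1.76 ± 0.63 and a limma adjusted p of 0.266. SLC7A11, the light chain of the cystine importer, was low, at 0.1651, 0.546 and 0.5532 RPKM with linseed and 1.027, 1.158 and 2.694 RPKM in control, without overlap.

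Further down, SLC1A1, a glutamate and aspartate importer, had 5.482, 4.215 and 0.2041 RPKM with linseed, against 26.71, 5.23 and 5.443 RPKM in control, and was lower in all 3 sheep although the groups overlapped. SLC15A4, the lysosomal histidine and peptide carrier, had 12.2, 15.22 and 21.9 RPKM with linseed, against 5.481, 14.14 and 13.67 RPKM in control, higher in all 3 sheep, though by little in sheep 2. SLC43A3, grouped here by its family number though known as a purine nucleobase transporter, had 11.66, 31.46 and 108.9 RPKM with linseed, against 2.495, 20.5 and 43.88 RPKM in control. None of these 3 passed either fit.

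From a list of 22 genes of amino acid sensing and cysteine and glutathione synthesis, 12 were tested; all 3 sheep were higher for 1 of them and lower for 5. Over the 12 the median was -1.01, and 2 genes fell in the blocked limma fit, beside 1.34% of all transcripts. This list was chosen with earlier results of these data known. No transcript passed the blocked fit with a pseudocount of 0.1, with no filter or with a filter at 5 RPKM. None passed it after median-of-ratios or quantile scaling or after the length correction. CTH, which makes cysteine from cystathionine, had a log2 change of -3.12 ± 0.64 (adjusted p with the block 0.0401), and RRAGC, a GTPase of the amino acid signal to mTORC1, one of -2.55 ± 0.84 (0.0441). ATF4, the transcription factor that drives many amino acid transporters under amino acid shortage, had a log2 change of -0.90 ± 0.63 and did not pass.

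**Figure D2:**
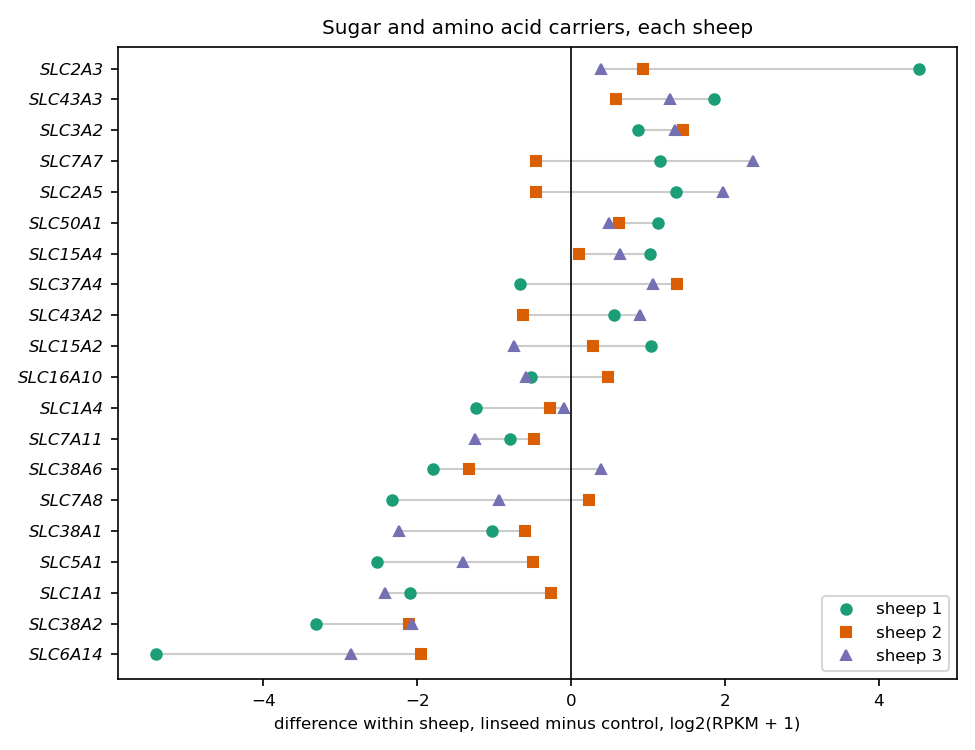
The within-sheep difference, linseed minus control, in log2(RPKM + 1) of the 20 tested sugar and amino acid carriers (rows), ordered by their mean change, with 1 mark for each sheep. SLC6A14 lies lowest, at -5.39, -1.95 and -2.86, and SLC3A2 has all 3 sheep between 0.87 and 1.45.

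Metal ion carriers had the lowest family median, -1.05, and their sheep medians were -1.65, -0.78 and -0.34. The median was -0.66 without linseed sheep 1, -1.54 without linseed sheep 3 and -0.48 without both libraries of sheep 1. Of 22 matched members 18 were tested, with 3 higher and 9 lower in all 3 sheep. SLC39A8 (XM_012179610.2), the zinc and manganese importer ZIP8, had 18.14, 7.038 and 1.186 RPKM with linseed, against 321.5, 21.06 and 28.78 RPKM in control. All linseed values were under all control values, and control sheep 1 stood far above the rest. The linseed level was 0.0564, 0.334 and 0.0412 times the control level. On the log2 scale this came to -3.10 ± 1.06, with a limma adjusted p of 0.264 and of 0.0427 with the block (SE 0.61). Without control sheep 1 it was -1.88.

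Most carriers of the SLC30 stem move zinc out of the cytosol into vesicles, the Golgi or the outside. All 5 tested were lower with linseed in all 3 sheep. Their log2 changes ran from -1.72 to -0.91 with a median of -1.26, or -0.94 after the length correction. This stem was picked out after the values of all stems with at least 3 tested members had been seen, and 0 of the 5 passed either limma fit. SLC30A4 (XM_004010647.3), whose loss in the mouse causes zinc-poor milk, had 0.1862, 0.3518 and 0.5413 RPKM with linseed, against 6.392, 1.329 and 2.145 RPKM in control, without overlap. Fitted over both groups, its log2 change was -1.48 ± 0.55, with an adjusted p of 0.274 in limma and 0.0922 with the block. With group means of 0.3598 RPKM with linseed and 3.288 in control, SLC30A4 passed the filter only through control. SLC30A7, a Golgi zinc transporter, had 1.431, 0 and 1.776 RPKM with linseed, against 6.638, 2.209 and 8.923 RPKM in control, also without overlap. SLC30A9, which exports zinc from mitochondria, was the most abundant of the stem, at 3.633, 3.714 and 12.17 RPKM with linseed and 13.62, 11.12 and 18.84 RPKM in control.

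The 3 metal carriers that were higher in every sheep were SLC39A3, SLC11A1 and SLC48A1. SLC11A1 (NM_001009345.1), the phagosomal metal transporter NRAMP1 of macrophages and neutrophils, had 8.557, 24.1 and 50.64 RPKM with linseed, against 2.463, 14.62 and 15.34 RPKM in control. Sheep 1 was lowest in both periods and the groups overlapped. The log2 change was 1.27 ± 0.82 (limma adjusted p = 0.449) over all libraries and 0.53 without control sheep 1. The 2 further transcripts of the gene had 1.39 and 1.34, but in sheep 2 they had -0.04 and -0.32. SLC39A3, the zinc importer ZIP3, had 11.32, 13.62 and 16.35 RPKM with linseed, against 5.297, 7.058 and 3.224 RPKM in control, without overlap, and a log2 change of 1.29 ± 0.57 (limma adjusted p = 0.314). SLC48A1, which moves heme out of the phagolysosome, had 22.02, 26.99 and 38.31 RPKM with linseed, against 11.93, 21.38 and 16.49 RPKM in control. The lowest linseed value of SLC48A1 was just above the highest control value, and after the length correction its log2 change was 0.25.

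The copper importer SLC31A1 (CTR1) had 4.003, 8.229 and 13.95 RPKM with linseed, against 62.61, 14.87 and 12.69 RPKM in control, so sheep 3 did not follow sheep 1 and 2. SLC39A7, which releases zinc from the endoplasmic reticulum, was the second most abundant metal carrier by mean, at 32.07, 53.5 and 57.77 RPKM with linseed and 42.12, 30.53 and 28.56 RPKM in control. Its log2 change was 0.47 ± 0.58, while a second tested transcript of the gene had -0.36 ± 0.80. Of 11 tested genes from a list of 23 for iron, zinc and copper handling, all 3 sheep were higher for 3 and lower for 4, and 0 passed either limma fit. ATOX1, the copper chaperone, had a log2 change of 2.53 ± 0.80 (limma adjusted p = 0.263, and 0.0531 with the block), and FTH1, the ferritin heavy chain, one of 1.34 ± 0.60 (0.315).

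**Figure D3:**
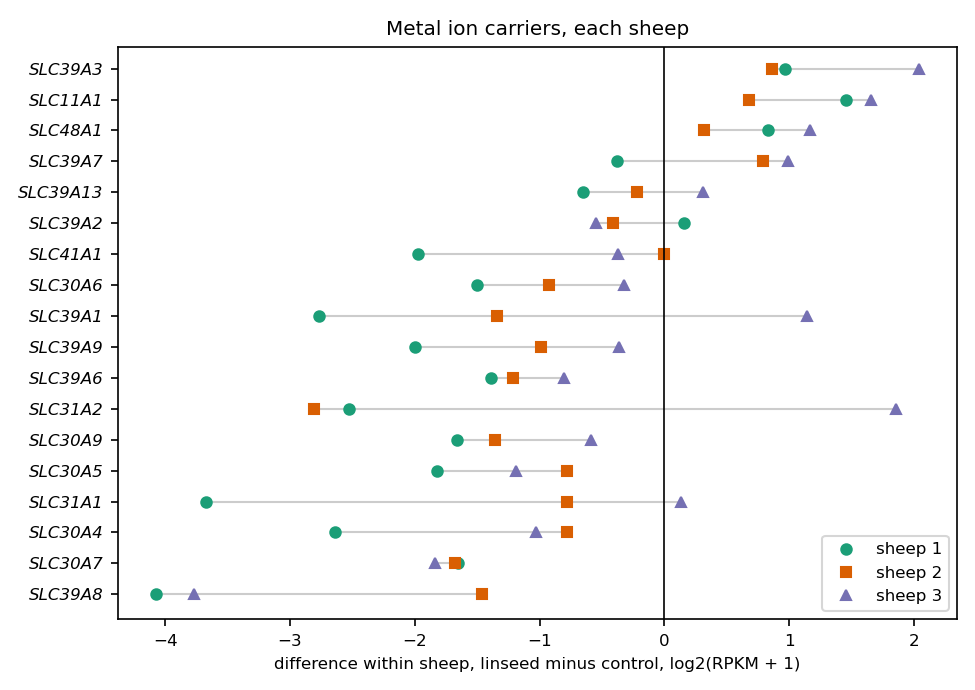
The within-sheep difference, linseed minus control, in log2(RPKM + 1) of the 18 tested metal ion carriers (rows), ordered by their mean change, with 1 mark for each sheep. SLC39A8 lies lowest, at -4.07, -1.46 and -3.77, all 5 SLC30 members have every mark left of 0, and SLC31A2 and SLC39A1 have sheep 3 on the other side from sheep 1 and 2.

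Mitochondrial carriers of the SLC25 family made up 46.9%, 46.2% and 45.4% of all member RPKM with linseed, against 26.9%, 45.7% and 42.3% in control, and the low share was that of control sheep 1, where SLC6A14 and SLC39A8 were highest. Of 32 matched members 27 were tested, with 6 higher and 9 lower in all 3 sheep. Their log2 changes had a median of -0.38, which became 0.03 at a filter of 5 RPKM and -0.04 without control sheep 3. SLC25A6 (NM_001127280.1) had 557.6, 691.1 and 780.7 RPKM with linseed, against 324.9, 404.9 and 526.2 RPKM in control. Every linseed value was above every control value. Its log2 change was 0.71 ± 0.57 (limma adjusted p = 0.544), but 0.22 after the length correction and -0.11 after quantile scaling, so its direction depends on the scaling.

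SLC25A4 and SLC25A5 are close copies of SLC25A6 that also exchange ADP for ATP, and how the authors divided reads shared between the 3 is uncertain. SLC25A5 had 26.84, 67.51 and 138.1 RPKM with linseed, against 105.9, 152.7 and 78.65 RPKM in control. Sheep 1 and 2 were lower with linseed and sheep 3 was higher. SLC25A4 had 18.05, 23.12 and 18.7 RPKM with linseed, against 49.92, 34.69 and 24.08 RPKM in control, with no overlap. Of the RPKM summed over these 3 genes, SLC25A6 took 92.5%, 88.4% and 83.3% with linseed and 67.6%, 68.4% and 83.7% in control, so its share was larger with linseed in sheep 1 and 2 and about equal in sheep 3.

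SLC25A36 (XM_015092639.1), which carries pyrimidine nucleotides into mitochondria, had 0.2916, 0.8264 and 2.067 RPKM with linseed, against 11.38, 2.969 and 15.41 RPKM in control. The groups did not overlap. In the fit its log2 change was -2.27 ± 0.68, with a limma adjusted p of 0.263 and of 0.0457 with the block (SE 0.53), and it did not pass the blocked fit without sheep 1 (adjusted p = 0.157). A second transcript of the same gene, of mean 4.46 RPKM, had a log2 change of 0.03 ± 0.70, with 0.39, 1.48 and -1.78 in the 3 sheep. The difference between the transcripts was not tested.

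SLC25A34 (XM_004013794.3) had much the same difference in each sheep, with 18.44, 15.54 and 14.22 RPKM with linseed, against 4.18, 2.694 and 3.178 RPKM in control. The groups stood well apart, and the linseed level was 4.41, 5.77 and 4.47 times the control level. On the log2 scale this came to 1.98 ± 0.55, with a limma adjusted p of 0.263 and of 0.0516 with the block, and it passed the blocked fit without sheep 3 (adjusted p = 0.0378). SLC25A28, the mitochondrial iron importer mitoferrin-2, had 43.36, 45.9 and 48.37 RPKM with linseed, against 13.46, 21.6 and 23.01 RPKM in control, again without overlap, and a log2 change of 1.24 ± 0.57 (limma adjusted p = 0.326). SLC25A29, a carrier of basic amino acids, had 27, 34.36 and 7.107 RPKM with linseed, against 5.911, 11.94 and 6.331 RPKM in control. Sheep 3 was nearly level between the periods. The log2 change of SLC25A29 was 1.20 ± 0.70, while a second tested transcript of the gene had 0.23 ± 0.66.

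SLC25A3, which imports the phosphate used to make ATP, had 29.83, 69.97 and 154.1 RPKM with linseed, against 94.99, 142 and 144.8 RPKM in control, lower in sheep 1 and 2 and nearly level in sheep 3. SLC25A32, a carrier of folate and flavin, had 0.2709, 0.2239 and 2.756 RPKM with linseed, against 3.705, 2.939 and 6.313 RPKM in control, without overlap. SLC25A16, a carrier linked to coenzyme A, had 0, 0.7061 and 0.2756 RPKM with linseed, against 2.927, 1.103 and 4.14 RPKM in control, and a log2 change of -1.43 ± 0.52 (limma adjusted p = 0.272). SLC25A17, the peroxisomal member of the family, had 0.876, 0 and 2.935 RPKM with linseed, against 3.346, 2.335 and 3.981 RPKM in control. The groups overlapped for SLC25A17 and not for SLC25A16, and both were lower in all 3 sheep. Of 16 tested genes from a list of 25 for mitochondrial channels, import and fusion, all 3 sheep were higher for 4 and lower for 2. In the blocked limma fit 2 genes rose, beside 1.28% of all transcripts. This list too was chosen with earlier results of these data known. No transcript passed the blocked fit with a pseudocount of 0.1, with no filter or with a filter at 5 RPKM. None passed it after median-of-ratios or quantile scaling or after the length correction. UCP2, an SLC25-type carrier under another symbol, had a log2 change of 2.68 ± 0.82 (adjusted p with the block 0.0481), and TSPO, an outer membrane protein abundant in macrophages, one of 2.82 ± 0.65 (0.0441). The neutrophil marker sum was also higher with linseed in all 3 sheep and the macrophage sum in sheep 1 and 3. Of 7 macrophage markers, 3 (CD68, TREM2 and C1QA) were higher in all 3 sheep and 1 (MRC1) was lower in all 3. In sheep 2 the macrophage marker LYZ had 39.4 RPKM with linseed and 546.6 in control. Of 6 neutrophil markers, 4 were higher in all 3 sheep, while FCGR3A and LTF were mixed. The part of cell makeup was not tested.

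**Figure D4:**
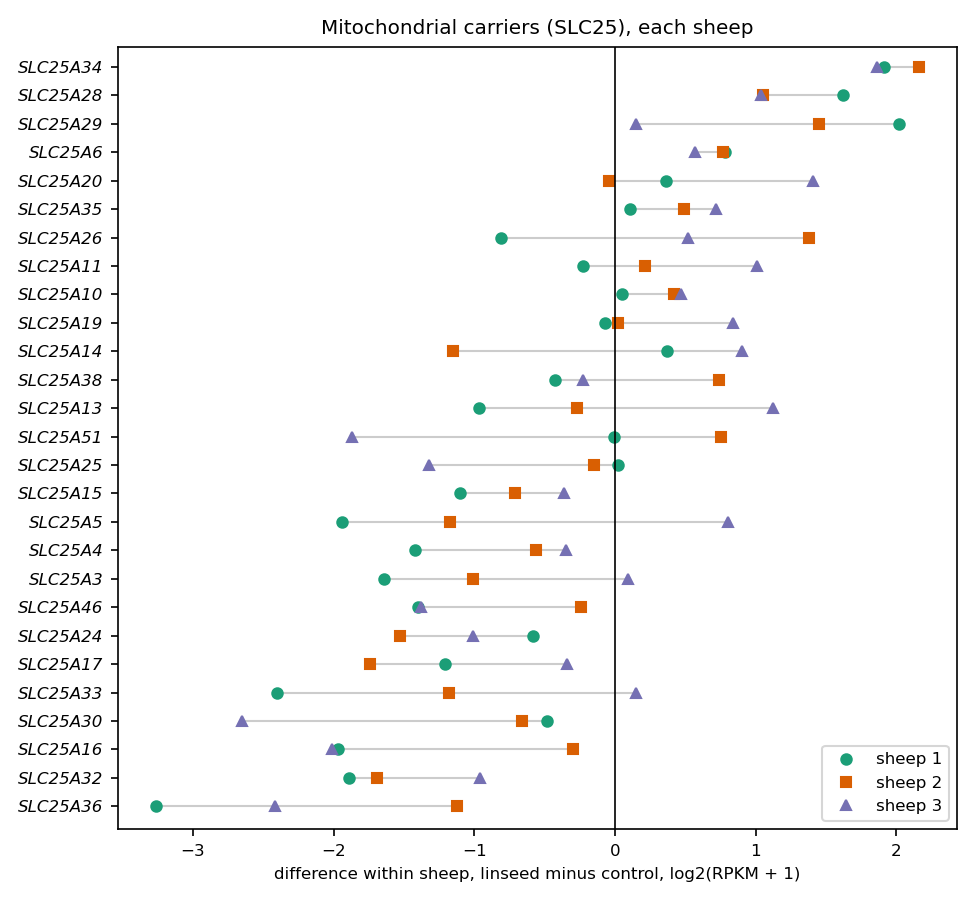
The within-sheep difference, linseed minus control, in log2(RPKM + 1) of the 27 tested mitochondrial carriers (rows), ordered by their mean change, with 1 mark for each sheep. SLC25A34 lies highest with its 3 marks between 1.86 and 2.16, SLC25A36 lies lowest at -3.26, -1.12 and -2.42, and 12 of the 27 rows have marks on both sides of 0.

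Among nucleotide sugar and other Golgi carriers 12 of 19 were tested, 1 was higher and 7 were lower in all 3 sheep, and the median log2 change was -0.66. SLC35A2 (XM_004022099.2), which brings UDP-galactose into the Golgi where lactose is made, had 0.1753, 0.5796 and 3.458 RPKM with linseed, against 6.35, 2.262 and 9.395 RPKM in control. Each sheep was lower with linseed, and linseed sheep 3 exceeded control sheep 2. Fitted over both groups, its log2 change was -1.64 ± 0.69 (limma adjusted p = 0.299, and 0.0762 with the block). SLC35A1, the CMP-sialic acid carrier, had 0.2036, 1.01 and 8.235 RPKM with linseed, against 6.553, 8.854 and 8.397 RPKM in control, and was close to level in sheep 3. SLC33A1, which carries acetyl-CoA into the endoplasmic reticulum, had 1.35, 1.674 and 4.59 RPKM with linseed, against 11.83, 5.455 and 6.512 RPKM in control, without overlap. SLC35B3, a Golgi carrier of the sulfate donor PAPS, had 0.4267, 0.1764 and 0.5824 RPKM with linseed, against 3.003, 0.5388 and 2.486 RPKM in control, lower in each sheep with overlap between the groups. SLC35B1, the ATP and ADP exchanger of the endoplasmic reticulum, was the 1 higher in all 3 sheep, at 29.2, 47.5 and 58.28 RPKM with linseed and 24.53, 40.7 and 21.8 RPKM in control.

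Monocarboxylate, vitamin and nucleoside carriers had 11 of 19 members tested, with 4 higher and 1 lower in all 3 sheep and a median log2 change of -0.03. The 1 lower was SLC28A3, the concentrative nucleoside importer CNT3, with 8.532, 9.235 and 5.195 RPKM with linseed, against 64.16, 15.9 and 19.33 RPKM in control. Its groups did not overlap, and the log2 change was -1.74 ± 0.67 (limma adjusted p = 0.285). SLC5A6, the importer of biotin and pantothenate, had 2.131, 2.455 and 1.106 RPKM with linseed, against 0.3805, 0.5798 and 0.1806 RPKM in control, with a log2 change of 1.05 ± 0.46 (limma adjusted p = 0.312). The other 3 higher in all sheep were SLC52A2, a riboflavin transporter, and the monocarboxylate family members SLC16A11 and SLC16A13, with log2 changes of 0.48, 0.99 and 0.65. SLC16A3, the lactate exporter MCT4 of glycolytic cells, had 0.7063, 11.77 and 43.67 RPKM with linseed, against 1.336, 6.012 and 25.73 RPKM in control. It differed far more between sheep than between periods. Its log2 change was 0.38 ± 1.16, while a second tested transcript of the gene had -0.39 ± 0.99.

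Ion and phosphate carriers had 8 of 25 members tested, 0 higher and 3 lower in all 3 sheep. SLC20A1, a sodium-phosphate cotransporter, had 15.34, 17.19 and 16.46 RPKM with linseed, against 43.61, 23.24 and 64.08 RPKM in control. The linseed values were nearly equal and all under the control values, and the log2 change was -1.25 ± 0.60 (limma adjusted p = 0.341). SLC12A2, the sodium, potassium and chloride cotransporter NKCC1, had 3.861, 12.4 and 0.4596 RPKM with linseed, against 0.4521, 1.127 and 4.082 RPKM in control. Sheep 3 went against sheep 1 and 2, and without sheep 3 the gene passed the blocked limma fit as higher (adjusted p = 0.028). SLC9A9, an endosomal sodium-proton exchanger, had 0, 0.251 and 3.485 RPKM with linseed, against 0.1491, 2.002 and 5.094 RPKM in control, lower in each sheep, with sheep 1 near 0 in both periods.

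The remaining organic ion, lipid and other carriers had 6 of 31 members tested, 2 higher and 3 lower in all 3 sheep. SLC22A16, a carnitine transporter, had 1.793, 0.3901 and 0.07027 RPKM with linseed, against 12.75, 3.814 and 2.112 RPKM in control. No linseed value reached a control value, and the log2 change was -1.88 ± 0.68 (limma adjusted p = 0.269, and 0.051 with the block). SLCO4A1, an organic anion transporter, had 2.107, 4.329 and 8.425 RPKM with linseed, against 33.11, 9.559 and 11.73 RPKM in control, also without overlap. SLC66A2, of the PQ-loop family, was higher without overlap, at 11.95, 16.03 and 18.19 RPKM with linseed and 5.448, 10.73 and 5.446 RPKM in control. SLC66A3 of the same family was lower in each sheep, at 0.2341, 2.419 and 8.597 RPKM with linseed and 1.737, 4.926 and 13.91 RPKM in control, and SLC10A3 was higher by little in sheep 1 and 2, at 4.731, 5.333 and 15.26 RPKM with linseed and 3.848, 5.069 and 7.918 RPKM in control. SLC4A1AP and SLC7A6OS, which match the naming rule but are named after a carrier and are not carriers themselves, had log2 changes of -1.56 ± 0.70 and -1.05 ± 0.63, both lower in all 3 sheep.

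**Figure D5:**
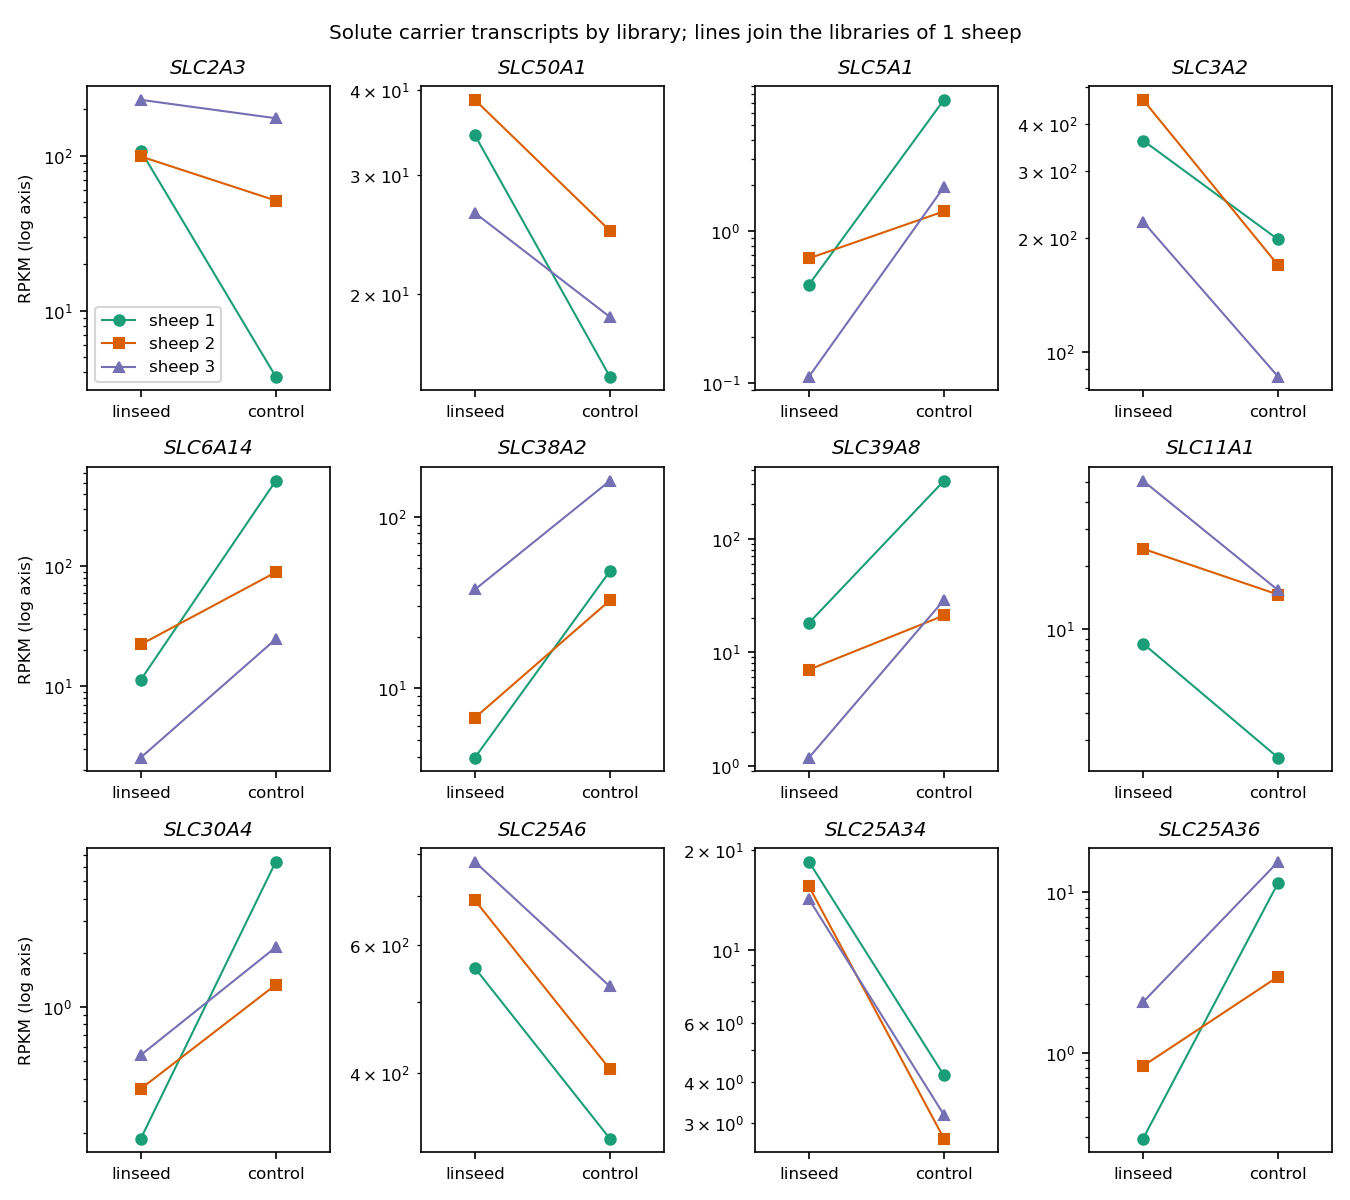
RPKM on log axes, each with its own range, of 12 solute carriers in the linseed (left) and control (right) library of each sheep, with lines joining the 2 libraries of a sheep. SLC6A14, SLC38A2, SLC39A8, SLC30A4, SLC25A36 and SLC5A1 are lower with linseed in every sheep, and SLC2A3, SLC50A1, SLC3A2, SLC11A1, SLC25A6 and SLC25A34 are higher, though SLC25A6 turns to -0.11 in log2 after quantile scaling.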

How the data were processed

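RNA from cells pelleted from 250 ml of milk was sequenced in 6 libraries, 2 from each of 3 ewes. The authors deposited 1 table of RPKM values for 49705 RefSeq transcripts. Per the submitters' processing notes, Trimmomatic 0.33 trimmed the reads; the sources used here do not name the aligner, genome build or counting tool, or say whether strand was used. Diet was read from the letter in each title together with the series design. Symbols came from RefSeq gene names of ARS-UI_Ramb_v3.0, matched on accession without version and used for names alone. The same animal identifier stands under the same number in both groups, so the sheep pair the libraries. Deviations of paired libraries correlated at 0.18, 0.25 and 0.40 in sheep 1, 2 and 3. Those of unpaired libraries ran from -0.40 to 0.24, the highest for linseed sheep 2 with control sheep 1. The correlations thus do not tell the pairs of sheep 1 and 2 apart. Values were taken as log2(RPKM + 1), filtered at a mean of 1 RPKM and compared with limma 3.58.1 in R 4.3.3 (mean-variance trend, Benjamini-Hochberg adjustment over 15891 transcripts). The fit had no block (4 residual degrees of freedom); a second had the sheep as a block (2). Printed SEs come from the first unless the block is named. The p-values measure the spread between these libraries of 3 animals.

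Steps between low RPKM values gave the library totals and transcript lengths (tolerance 0.005 reads). This and the limma fit were tested on simulated data, and the recovered reads came to 99.41% to 99.82% of the totals. Named genes were every tested glucose carrier, the members of smallest p in each direction of each family that moved alike in all 3 sheep (at most 4), the 10 most abundant members and a set with known mammary or phagocyte roles; any other gene was chosen after its values were seen. A gene that this rule takes is not reported here. Members and lists were chosen with earlier results of these data known. The group for genes named after a carrier, the length correction (a lowess curve of deviation on length, removed from each library) and every alternative that joins the block to another choice were added after seeing the data.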

Additional observations from a re-analysis of the deposited data

How the results depend on the processing

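Of 53 named genes, 49 kept the sign of their log2 change under all 24 alternatives. Much of this was fixed in advance. Where both libraries of each sheep are kept, adding the block leaves every log2 change as it was. Many named genes were also picked because all 3 sheep moved alike, so leaving out 1 sheep cannot turn their sign. SLC25A6 was -0.11 after quantile scaling and SLC10A3 was -0.07 after the length correction, with or without the block. With 1 library left out, SLC10A3 ran from -0.09 to 0.66 and SLC16A3 from -0.70 to 1.65; with 1 sheep left out of the blocked fit, SLC12A2 ran from -0.03 to 2.20. With the replicate block 4 members were called lower (3.85%, beside 1.34% of all transcripts). With milk proteins also left out of the totals 3 were, beside 116 of 15883 transcripts. The block changed no other member's call. Leaving out 1 library from the fit without the block gave 0 calls. Leaving out 1 sheep from the blocked fit gave 3 to 16 members lower and 0 to 3 higher, the most without sheep 3. Without sheep 3, 15.4% of members were lower and 2.88% higher, beside 6.41% and 6.18% of all transcripts. The glucose median was 0.16 with no filter and 1.35 at 5 RPKM, 0.55 to 1.14 with 1 library left out and 0.45 to 0.81 with 1 sheep left out. The amino acid median was -0.07 with no filter, 0.27 at 5 RPKM and -0.19 after the length correction, -0.73 to -0.26 with 1 library left out and -0.66 to -0.23 with 1 sheep left out. The mitochondrial median was 0.03 at 5 RPKM, -0.52 to -0.04 with 1 library left out and -0.57 to -0.18 with 1 sheep left out. The median of all members was -0.10 with no filter, and -0.68 to -0.31 with 1 sheep left out. These medians were the same with and without the block, as they must be where each sheep has a library in both groups. The median over all transcripts was -0.12, but -0.28 with milk proteins left out, -0.01 after quantile scaling and 0.11 at 5 RPKM. The causes were not tested. In the shallowest library 1 read at 2000 nt is 0.1012 RPKM, which limits members under 1 RPKM.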

Other observations

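Several carriers split by animal, with sheep 1 and 2 lower with linseed and sheep 3 higher; they were picked after their values were seen. SLC39A1, the zinc importer ZIP1, had 2.316, 18.83 and 64.08 RPKM with linseed in sheep 1, 2 and 3, against 21.69, 49.34 and 28.47 RPKM in control. SLC31A2, a copper transporter of endosomes and lysosomes, had 7.542, 3.411 and 40.08 RPKM with linseed, against 48.42, 30.03 and 10.28 RPKM in control. SLC17A5, which exports sialic acid from lysosomes, had 0.2134, 1.353 and 6.074 RPKM with linseed, against 4.938, 6.389 and 5.041 RPKM in control. Other tested transcripts did not follow this split: in sheep 1, 2 and 3 the second of SLC31A2 had log2 changes of -1.40, 1.25 and 0.20, and those of SLC39A1 had -1.28, 0.46 and 1.58, and 0.63, -0.44 and 0.56. Whether sheep 3 differs from the others in its response was not tested.

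The libraries differed in how often they held the extreme value of a member. Of the 104 tested members, 53 (51.0%) were lowest in linseed sheep 1, the shallowest library, against 32.6% of all tested transcripts, and 19 (18.3%) in control sheep 1, the deepest, against 33.0%. Highest values fell in control sheep 3 for 34 members (32.7%), against 41.0% of all tested transcripts, in linseed sheep 3 for 29 (27.9%), against 21.1%, and in control sheep 1 for 22 (21.2%), against 9.2%. Of 15 members with several tested transcripts, 8 had the same sign in all of them and 7 had opposite signs.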
